A study of Mus musculus with 2 samples.

Results

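The 10 microRNA hairpins described here are not listed in the count tables of newborn mouse kidney, and were read from rows of the other strand at the same place. They are Mir378a, Mirlet7e, Mir191, Mir497, Mir376a, Mir409, Mir142, Mir299a, Mirlet7f-1 and Mir380. Their rows were chosen by value, as those of 1973 microRNA rows that held 500 or more opposite-strand reads in both pups, which is 0.507% of rows. Levels of these opposite-strand reads are therefore descriptions, and none was tested. The samples were whole kidney tissue of B6NCrl mice at postnatal day 0, with microRNA sequencing of small RNA. Each of the 2 samples pooled the 2 kidneys of 1 pup, and both pups came from the same pregnancy, so they form 1 group with n = 2 and no contrast between conditions. The labels give no genotype change or treatment, and sex was not recorded.

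A microRNA is cut from the stem of a hairpin transcript, and its arms, named 5p and 3p, guide repression of messenger RNAs mainly through the seed, bases 2 to 8 of the mature strand. A hairpin has complementary stem arms, so the DNA of the other strand also spells a hairpin, and annotation catalogues list some such antisense hairpins as genes. The 10 hairpins differ in background. Mir378a sits in an intron of Ppargc1b and is known from energy metabolism, while Mirlet7e and Mirlet7f-1 belong to the let-7 family of developmental timing. Mir497 belongs to the miR-15/16 family, known for limiting cell cycle genes. Mir191 is a broadly expressed microRNA, and Mir142 is known as a marker of blood cell lineages. Mir376a, Mir409, Mir299a and Mir380 come from the imprinted Dlk1-Dio3 region, whose microRNAs are expressed from the maternal chromosome.

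The seeds separate the hairpins into those that share a seed with counted genes and those that do not. The mature sequences were taken from RefSeq (GRCm38.p6), which held 9 of the 10 hairpins, and capitals mark the seed. Both let-7 members carry the same seed and Mir497 carries that of the miR-15/16 family, so their 5p arms are shown first, followed by both arms of 4 hairpins whose seeds no other mature sequence in that table shared.
mmu-let-7e-5p: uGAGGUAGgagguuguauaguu
mmu-let-7f-5p: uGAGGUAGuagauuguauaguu
mmu-miR-497a-5p: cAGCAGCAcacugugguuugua
mmu-miR-191-5p: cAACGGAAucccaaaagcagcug
mmu-miR-191-3p: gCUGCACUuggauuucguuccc
mmu-miR-376a-5p: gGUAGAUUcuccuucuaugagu
mmu-miR-376a-3p: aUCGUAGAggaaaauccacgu
mmu-miR-409-5p: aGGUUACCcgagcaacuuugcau
mmu-miR-409-3p: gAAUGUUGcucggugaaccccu
mmu-miR-380-5p: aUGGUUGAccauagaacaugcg
mmu-miR-380-3p: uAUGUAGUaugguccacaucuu

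Mir299a and Mir142 lie opposite to hairpins that RefSeq also lists, Mir299b and Mir142b, and are shown beside sequences of these. RefSeq lists Mir497b, opposite to Mir497, as well, which is not shown. Capitals mark the listed mature arms in the 3 hairpins below, and the seed in the mature sequence of Mir142b.
Mir299a hairpin: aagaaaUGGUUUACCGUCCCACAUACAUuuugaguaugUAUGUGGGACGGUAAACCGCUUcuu
Mir299b hairpin: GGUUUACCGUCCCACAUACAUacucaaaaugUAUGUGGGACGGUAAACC
Mir142 hairpin: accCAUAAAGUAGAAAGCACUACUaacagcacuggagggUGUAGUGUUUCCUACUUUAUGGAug
mmu-miR-142b: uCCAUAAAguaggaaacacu
For each mature arm, the fewest mismatches to any stretch of its own hairpin's other strand, without gaps, were counted. The 5p arm of Mir299a differed from its other strand at 1 position and the 3p arm at 2. Every base of the listed 5p arm of Mir299b recurs inside the 5p arm of Mir299a, with 0 mismatches over 21 bases. The listed 3p arm of Mir299b recurs inside the 3p arm of Mir299a, with 0 mismatches over 18 bases. The arms of Mir142 differed from their other strand at 3 and 4 positions. Over the 18 mature arms of the 9 hairpins the count ran from 1 to 10 with a median of 5.5, against a median of 9 over 1635 RefSeq mature sequences. At most 2 mismatches were found in 2 of the 18 arms, both of Mir299a, and in 2.02% of the 1635 sequences. The 9 hairpins all lie opposite to a microRNA row, which was not required of the 1635 sequences, and the difference was not tested.

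All 10 rows overlap the hairpin gene opposite to them, and 9 contain it whole. On mm10 the row Gm25301 (ENSMUSG00000093026.1) spans chr18:61397813-61397925 on the plus strand, and Mir378a lies opposite at chr18:61397835-61397900, in an intron of Ppargc1b. Gm25927 (ENSMUSG00000092799.1) spans chr17:17830343-17830459 on the minus strand, around Mirlet7e at chr17:17830352-17830444 in an intron of Spaca6. Gm24083 (ENSMUSG00000092915.1) lies on the minus strand at chr9:108568295-108568414. It surrounds Mir191 at chr9:108568319-108568392, where some transcript of the long noncoding RNA 4833445I07Rik has an exon.

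On chromosome 11, Mir497b (ENSMUSG00000070109.2) spans chr11:70234692-70234816 on the minus strand around Mir497 at chr11:70234717-70234800. Mir142b (ENSMUSG00000065420.2) spans chr11:87756841-87756955 on the same strand, around Mir142 at chr11:87756864-87756927 in an intron of Mir142hg. Gm24111 (ENSMUSG00000093232.1) lies on the plus strand at chr13:48537825-48537921. Opposite to it is Mirlet7f-1 at chr13:48537829-48537917, where the long noncoding RNA 6720427I07Rik has an exon in some transcript.

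The other 4 rows lie on the minus strand of chromosome 12. Gm25252 (ENSMUSG00000093218.1) spans chr12:109723756-109723875 around Mir376a at chr12:109723781-109723848. Gm24321 (ENSMUSG00000093089.1) spans chr12:109743158-109743237 around Mir409 at chr12:109743158-109743236, in an intron of Mirg. Gm25750 (ENSMUSG00000093224.1) spans chr12:109711779-109711890 around Mir380 at chr12:109711803-109711863. Mir299b (ENSMUSG00000093291.1) lies at chr12:109710645-109710693, inside Mir299a at chr12:109710638-109710700. Of the 10 row identifiers this is the 1 whose version changed between the tables and the annotation used for positions, so its place in the tables' own annotation is not known here. No host gene of the types considered was found on the strand of Mir497, Mir376a, Mir380 or Mir299a.

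**Figure D1:**
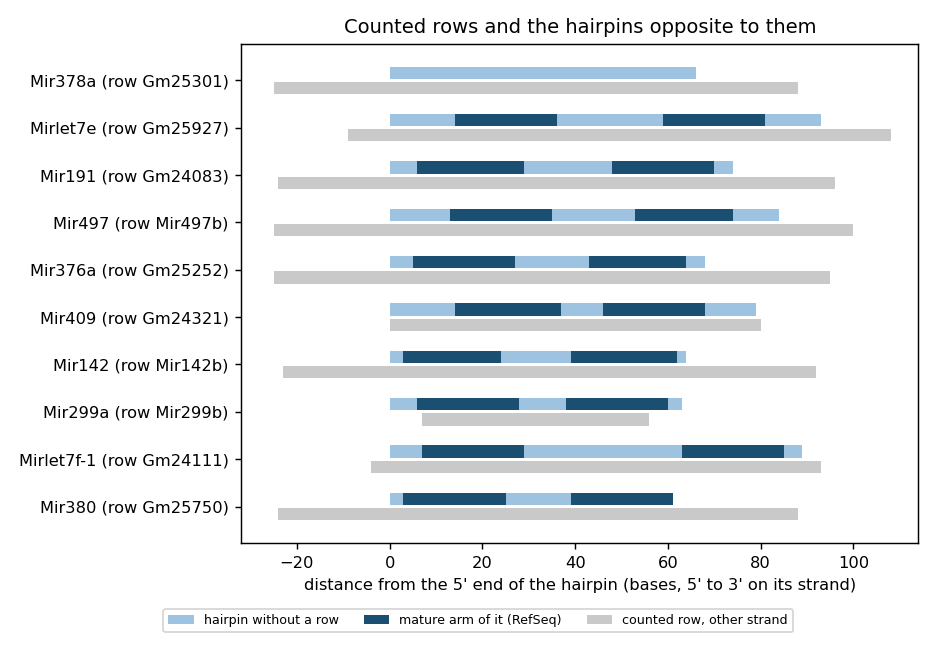
Position of each counted row (grey) against the hairpin opposite to it (light blue) and that hairpin's RefSeq mature arms (dark blue, not drawn for Mir378a). The horizontal axis is the distance in bases from the 5' end of the hairpin, read along its own strand. In 9 of 10 pairs the grey bar covers the whole hairpin, and for Mir299a it covers 77.8% of it.

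Each of the 10 rows lies opposite to a hairpin without a row. The read limit did not use this position, but it was known when the rows were listed, so it is a description and was not tested. Of the 1894 rows with a known position, 32, or 1.69%, lie opposite to such a hairpin, these 10 included. In no case did both genes of an overlapping pair have a row, so lacking one sets the 10 hairpins apart from no other pair. The tables list 0 ambiguous reads. The 10 rows carry names of predicted genes (Gm) in 7 cases, beside 843 of all 1973 rows, and microRNA names in 3 cases. In the remaining 22 pairs, 17 rows had more reads on their own strand than on the opposite strand in both pups.

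The tables hold 5832192 counts in pup 1 and 3846704 in pup 2 on the strand of the 1973 rows. Levels here are CPM, opposite-strand reads scaled by that total, as mean ± SD over 2 pups. They were not divided by length, since the mature arms of the 9 hairpins held by RefSeq are 21 to 23 bases long. With 0 reads a level of up to 3 counts remains possible, or 0.514 CPM in pup 1 and 0.780 CPM in pup 2. Like all intervals given here, this reflects counting error alone, and repeated reads of 1 molecule were not told apart here. Counted in both pups were 5 of 5 listed epithelial, 4 of 4 proximal tubule and 3 of 3 smooth muscle and mesenchyme markers. Mir126a of endothelium stood at 79588 ± 10777 CPM. Of the proximal tubule markers, Mir215 and Mir194-1 were low in singly placed reads, at 10.1 ± 1.45 and 3.70 ± 0.825 CPM. The 3 listed erythroid genes were also counted, Mir451a at 208 CPM in pup 1 and 53.6 CPM in pup 2. In the same order, Mir144 had 32.2 and 42.9 CPM, and Mir486 had 0.686 and 2.34 CPM. All these marker levels leave out any reads listed as multimapping, so a low value, as for Mir194-1 or Mir486, need not mean a scarce microRNA.

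Reads at the 10 rows fell on the opposite strand almost without exception, 121159 in pup 1 and 78453 in pup 2, against 1 read on the strand of the row in each pup. The read in pup 1 was at Mir497b and that in pup 2 at Mir299b, and 8 rows had 0 own-strand reads in both pups. More opposite-strand than own-strand reads in both pups were found at these 10 rows and at Mir3073a, together 0.558% of the 1973 rows, a share that the choice of rows largely fixes. Wilson 95% intervals of the opposite share had lower bounds from 99.3% at Gm25750 in pup 2 to 99.99% at Gm25301 in pup 1. The 10 rows held 99.5% of all opposite-strand reads in both pups, a share that their choice by these same reads favours. They also made up 41.6% (41.5 to 41.8) of the reads listed on the strand of no gene in pup 1 and 40.1% (39.9 to 40.3) in pup 2. Just inside the limit of 500 were Mir380, with 814 reads in pup 1 and 539 in pup 2, and Mirlet7f-1, with 826 and 566. Just outside it were the reads opposite to Mir203, with 250 in pup 1 and 173 in pup 2, and those opposite to Mir3074-1, with 222 and 145.

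**Figure D2:**
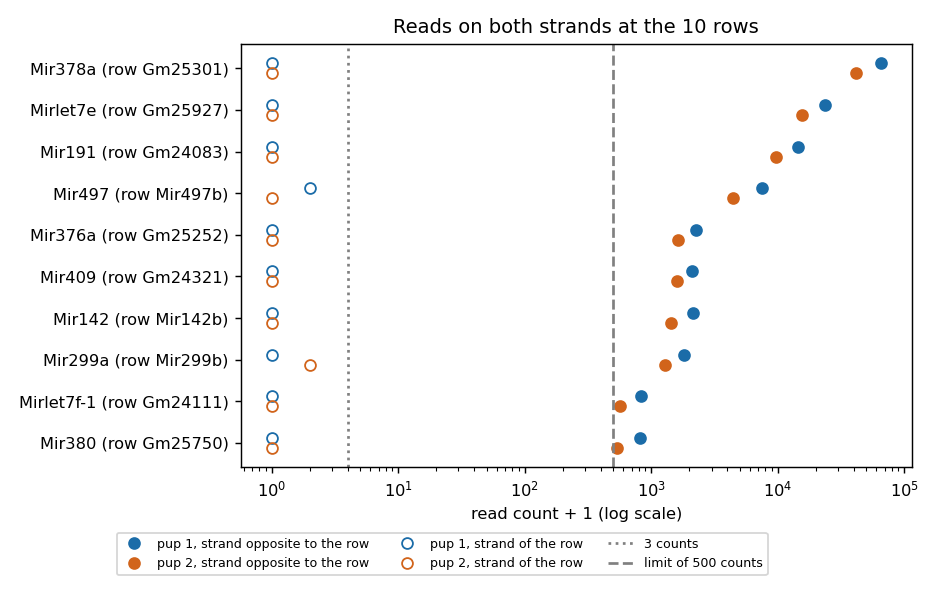
Read counts plus 1, on a log axis, at each of the 10 rows in pup 1 (blue) and pup 2 (orange), on the strand opposite to the row (filled) and on the strand of the row (open). Opposite-strand counts run from 539 to 65602, and own-strand counts are 0 or 1.

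Mir378a led the hairpins with 11248 CPM in pup 1 and 10906 CPM in pup 2, a mean of 11077 ± 242. Its 65602 reads in pup 1 and 41952 in pup 2 made up 53.8% ± 0.475 of all reads of the 10. Placed among the rows counted on their own strand, it would stand at rank 22, between Mir23a at 11573 ± 485 CPM and Mir99b at 9421 ± 544 CPM. Mir378a, Mirlet7e and Mir191 together held 85.5% ± 0.125 of the reads of the 10. The related genes Mir378d, Mir378c and Mir378b, which have rows, stood at 6.90 ± 1.27, 3.96 ± 0.458 and 0.647 ± 0.188 CPM. Among the reads of those 4 genes assigned to a single place, Mir378a thus supplied 99.9% ± 0.0113. RefSeq held no entry for Mir378a, so copies of its arms in related hairpins were not looked for. Any reads listed as multimapping are left out of this share. The yield of reads per molecule is unknown for each microRNA, so an order, share or ratio between genes refers to reads and not to molecules.

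Mirlet7e had 4055 CPM in pup 1 and 4011 CPM in pup 2, a mean of 4033 ± 30.8 and rank 35. Its reads numbered 23650 and 15431, and the coefficient of variation over the pups was 0.764%. It lies between Mir99b and Mir125a, 95 and 368 bases away, in a cluster of hairpins of the same strand. Mirlet7e stood at 0.449 times Mir99b in pup 1 and 0.409 times in pup 2, and at 1.25 and 1.26 times Mir125a, which had 3215 ± 36.2 CPM. Among the 12 listed let-7 genes the nearest level was that of Mirlet7f-2, whose 4015 ± 60.6 CPM did not differ from it beyond their SD. Since some let-7 genes share a mature arm, an order or share within this family holds only for reads assigned to a single place.

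Mirlet7f-1 was among the lowest of the 10, with 142 CPM in pup 1 and 147 CPM in pup 2, a mean of 144 ± 3.90. It lies between Mirlet7a-1, at 173 ± 16.4 CPM, and Mirlet7d, at 12379 ± 51.5 CPM, which are 262 and 1715 bases away. Mirlet7f-1 thus had 0.0117 ± 0.000363 times the reads of Mirlet7d and 0.842 ± 0.103 times those of Mirlet7a-1. The 5p arm of Mirlet7f-1 is identical to a stretch of Mirlet7f-2, the only exact copy among the 18 arms compared with other RefSeq hairpins. That comparison left out the hairpin of the opposite row. Reads of that arm match more than 1 place, and the tables list multimapping reads apart, 30.3% of reads in pup 1 and 31.0% in pup 2, so this level leaves out any reads listed there. The 5p arm of Mirlet7e differs from its nearest other hairpins, Mirlet7a-1 and Mirlet7a-2, at 1 position. Together both let-7 hairpins had 4178 ± 26.9 CPM, or 3.41% ± 0.0643 of the singly placed reads of the 12 let-7 genes.

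Mir191 had 2484 CPM in pup 1 and 2509 CPM in pup 2, a mean of 2497 ± 17.8 and rank 47, from 14489 and 9653 reads. Its neighbour Mir425, 385 bases away on the same strand, had 1399 ± 22.0 CPM. Mir191 stood at 1.76 times Mir425 in pup 1 and 1.81 times in pup 2, and held 64.1% ± 0.526 of the reads of the pair. The arms of Mir191 had at least 6 mismatches to every other RefSeq hairpin.

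Mir497 had 1280 CPM in pup 1 and 1143 CPM in pup 2, a mean of 1211 ± 97.3 and rank 71, from 7466 and 4395 reads. Mir195a, its neighbour at 242 bases and a member of the same seed family, had 2071 ± 23.1 CPM. The ratio of Mir497 to Mir195a was 0.623 in pup 1 and 0.547 in pup 2. In the miR-15/16 family of 7 listed genes Mir497 stood below Mir15b at 1624 ± 24.1 CPM. Mir16-1 and Mir16-2 share the mature sequence miR-16-5p, so their levels lack any of its reads listed as multimapping, and Mir497 was not ordered against them. Of the family's reads assigned to a single place it supplied 2.15% ± 0.170, most of which belong to Mir322 at 43791 ± 436 CPM.

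Mir142 had 365 CPM in pup 1 and 370 CPM in pup 2, a mean of 367 ± 3.57 and rank 104. It stood above the listed leukocyte microRNAs that have rows, namely Mir223 (298 ± 26.1 CPM), Mir155 (257 ± 6.83 CPM), Mir146 (118 ± 9.16 CPM) and Mir150 (30.4 ± 2.57 CPM). With its 2128 reads in pup 1 and 1423 in pup 2 it made up 34.3% ± 1.65 of the reads of these 5 genes. In whole tissue, fewer cells of a type and less RNA per cell cannot be told apart. The coefficient of variation of Mir142 over the pups was 0.973%.

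**Figure D3:**
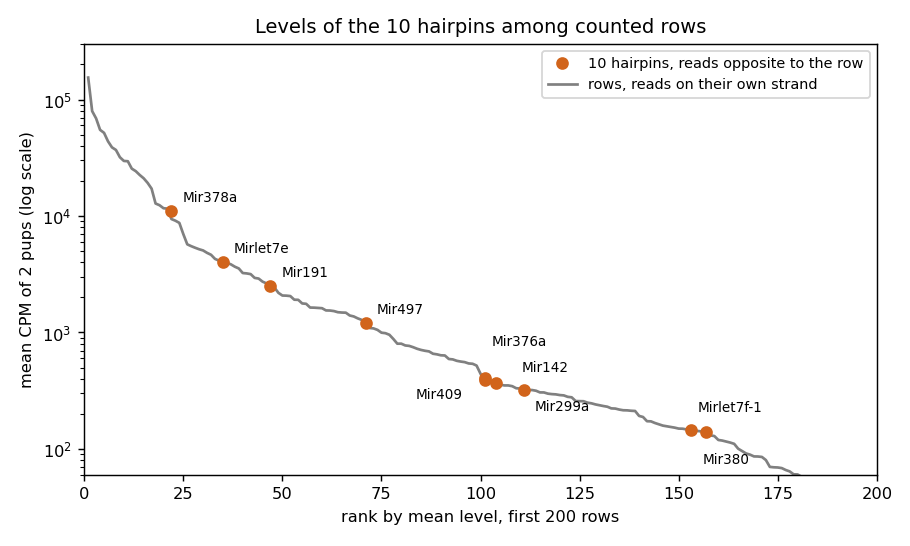
Mean level in CPM of 2 pups, on a log axis, against rank for rows counted on their own strand (grey line, first 200 ranks) and for the 10 hairpins read opposite to a row (orange points). The hairpins run from Mir378a at rank 22 to Mir380 at rank 157.

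The 4 hairpins of the Dlk1-Dio3 region were of moderate level and summed to 1200 CPM in pup 1 and 1308 CPM in pup 2, a mean of 1254 ± 76.7. Mir376a had 388 CPM in pup 1 and 421 CPM in pup 2, from 2260 and 1621 reads. Mir409 had 360.2 CPM in pup 1 and 414 CPM in pup 2, from 2101 and 1592 reads. Mir299a had 313 and 333 CPM in pup 1 and pup 2, from 1823 and 1281 reads, and Mir380 had 139.6 and 140.1 CPM. Their means were 404 ± 24.0 for Mir376a, 387 ± 37.9 for Mir409, 323 ± 14.5 for Mir299a and 139.8 ± 0.389 CPM for Mir380. Since the listed arms of Mir299b recur in those of Mir299a, the level of Mir299a holds only for reads assigned to a single place.

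Among 36 genes with a value of the cluster from Mir379 to Mir410, Mir376a was at rank 5 by mean level, Mir409 at rank 6, Mir299a at rank 8 and Mir380 at rank 14. These 4 hairpins held 17.7% ± 1.10 of the reads of the 36 genes, of which the other 32 have rows. Mir376a had 6.15 ± 0.331 times the level of its neighbour Mir300. Mir654, the nearest gene with a row on the other side of Mir376a, had 0 reads in both pups. Mir409 stood at 0.745 ± 0.0739 times Mir541 and far above Mir412, which had 25 reads in pup 1 and 24 in pup 2. Mir299a and Mir380 lie beyond Mir411, the cluster's highest gene at 1912 ± 458 CPM, and had 0.173 ± 0.0339 and 0.0753 ± 0.0178 times its level. Mir1197, the next gene with a row on the other side of both, had 2 reads in pup 1 and 0 in pup 2. Mir380 itself lies between Mir299a and Mir1197. Levels thus differed widely between several of these hairpins and the nearest genes with a row in this cluster. Mir376a is related to Mir376c, which had 36.3 ± 4.97 CPM from its own row, and its arms had at least 3 mismatches to any other RefSeq hairpin.

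**Figure D4:**
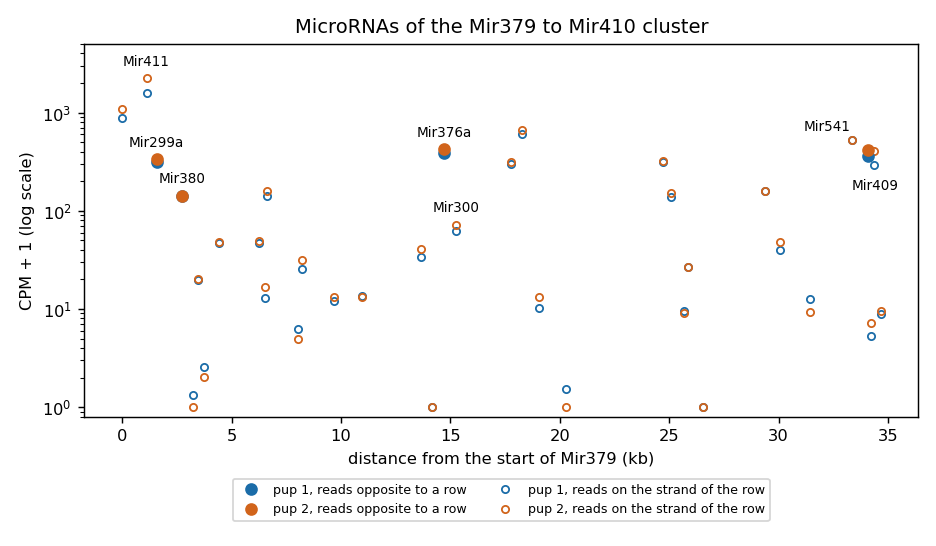
Level in CPM plus 1, on a log axis, of microRNAs from Mir379 to Mir410 against the distance in kb from the start of Mir379, in pup 1 (blue) and pup 2 (orange). Filled points are the 4 hairpins read opposite to a row, open points are genes read on the strand of their row. The filled points lie between 139.6 and 421 CPM.

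The order of the 10 hairpins was clear at the top and not in the middle. The gaps between Mir378a, Mirlet7e, Mir191, Mir497 and Mir376a each exceeded the larger SD of the neighbours, and so did the gap between Mir142 and Mir299a. Mir409 was not separated from either neighbour in this order, since Mir376a exceeded it by 17.4 CPM and it exceeded Mir142 by 19.7 CPM, against an SD of 37.9. Mirlet7f-1 exceeded Mir380 by 4.54 CPM, against an SD of 3.90, which is little to order them with 2 pups. All 10 hairpins together came to 20774 CPM in pup 1 and 20395 CPM in pup 2, a mean of 20585 ± 268. Added to the counted reads, they would form 2.02% ± 0.0258 of the enlarged total.

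The pups differed little in these hairpins. The log2 ratios of pup 1 over pup 2 ran from -0.20 for Mir409 to 0.16 for Mir497, with a median of -0.02, beside a median of 0.02 over the 324 rows with a mean count of at least 10. The median size of the ratio was 0.05 for the 10 hairpins and 0.10 for 135 rows within their range of levels. Each ratio compares 2 libraries, and its exact 95% interval from the binomial split of the reads covers counting error only, so no p-value is given. The interval left out 0 for 4 of 10 hairpins, beside 34.9% of the 324 rows and 58.5% of the 135 rows in the same range of levels. A share of 4 in 10 is near the first of these and below the second.

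The pup with the higher level was not the same for these 4 hairpins. Mir378a had a log2 ratio of 0.04 (0.03 to 0.06) and Mir497 of 0.16 (0.11 to 0.22), so these 2 were higher in pup 1, where 19.1% of the 324 rows were. Mir376a had -0.12 (-0.21 to -0.03) and Mir409 -0.20 (-0.29 to -0.11), so these 2 were higher in pup 2, where 15.7% of the rows were. Intervals of the other 6 included 0. They were -0.01 to 0.04 for Mirlet7e, -0.05 to 0.02 for Mir191, -0.12 to 0.08 for Mir142 and -0.20 to 0.01 for Mir299a. The widest were those with the fewest reads, -0.21 to 0.10 for Mirlet7f-1 and -0.16 to 0.15 for Mir380.

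**Figure D5:**
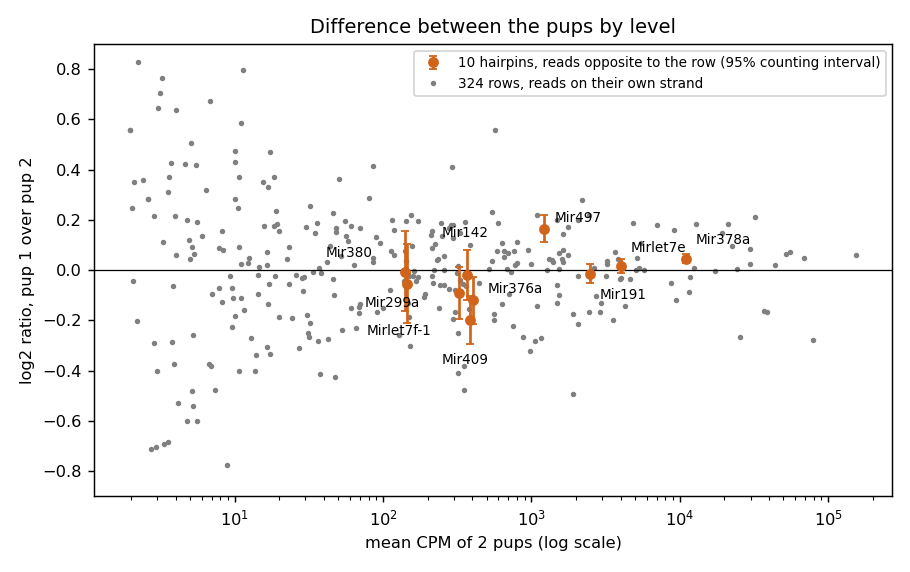
Log2 ratio of pup 1 over pup 2 against mean CPM (log axis) for the 10 hairpins with 95% counting intervals (orange) and for 324 rows counted on their own strand (grey), of which 8 lie beyond the vertical axis. The hairpins stay between -0.20 and 0.16.

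Beside their genomic neighbours the ratios were close in some clusters and apart in others. Mirlet7e (0.02) and Mir125a (0.02) were alike in value, whereas Mir99b had -0.12 (-0.14 to -0.10). Mir191 and Mir425 had -0.01 and 0.03, with both intervals including 0. Mir497 at 0.16 stood apart from Mir195a at -0.02 (-0.06 to 0.02), and their intervals did not overlap. The interval of Mirlet7f-1, at -0.06 (-0.21 to 0.10), overlapped those of Mirlet7d, at 0.01 (-0.01 to 0.03), and Mirlet7a-1, at 0.19 (0.05 to 0.34). Mir376a at -0.12 and Mir300 at -0.23 (-0.46 to 0.00) also had overlapping intervals. Mir409 at -0.20 had an interval apart from that of Mir541, at 0.00 (-0.08 to 0.08). It lay within the wide interval of its other neighbour Mir412, at -0.54 (-1.41 to 0.33). Mir299a at -0.09 and Mir380 at -0.01 were nearer to 0 than Mir411, at -0.49 (-0.54 to -0.45). The interval lay on the side of pup 2 for 5 of 27 row-counted genes of that cluster and of pup 1 for 0. These 27 genes had a mean count of at least 10 and a median log2 ratio of -0.13. Over all 324 rows the shares were 15.7% for pup 2 and 19.1% for pup 1, with a median of 0.02. Among leukocyte genes, Mir142 had -0.02 and Mir223 0.18 (0.07 to 0.29), while Mir155, Mir146 and Mir150 had 0.05, 0.16 and 0.17 with intervals that include 0.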

How the data were processed

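Small RNA of 2 newborn kidney samples was sequenced, and the authors deposited 1 table per pup with 3 columns of whole-number read counts and no header. The notes deposited with the tables name assembly mm10 and gene annotation M4. The sources used here do not state the aligner, trimming or filters. In all 1973 rows the other two count columns summed to the first, so they were read as the strand of the gene and the opposite strand. Summary rows without a gene were left out of totals. Unmapped reads were 8.52% and 8.69% of reads in pup 1 and pup 2, and reads that met no gene of their strand were 2.91% and 2.92%.

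Identifiers were matched without version to GENCODE M21 (1894 of 1973 matched), and sequences came from RefSeq. Neighbours were the nearest genes with a row on the hairpin's strand within 10 kb. Ratios of counts used a prior count of 0.5 and exact 95% binomial intervals (scipy 1.17.1). The interval code was tested on simulated counts with counting error alone, which is no check of variation between pups. Alternative scalings used edgeR 4.0.16 (TMM) and DESeq2 1.42.0 size factors. A read counted opposite to a row may come from any RNA of that strand inside the row, and arms were not separated. The hairpins and gene lists were chosen with earlier results of these data known. Named genes are the hairpins, their nearest neighbours, relatives by seed or list, and rows near the read limit.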

Additional observations from a re-analysis of the deposited data

Results flagged for a closer look

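Outside the 10 rows, 5 rows had more than 3 opposite-strand reads in both pups, the limit that a count of 0 allows. The reads opposite to Mir203 numbered 250 in pup 1 and 173 in pup 2, beside 10442 and 7785 on its own strand, and no hairpin gene of the other strand is listed there in GENCODE M21. Opposite to Mir3074-1 were 222 reads in pup 1 and 145 in pup 2, which is 47.3% and 47.7% of the reads on either strand there, at the place of Mir24-1, which has no row. Opposite to Mir126a, the hairpin with far the most own-strand reads of the 5, there were 22 reads in pup 1 and 19 in pup 2, at the place of Mir126b. Opposite to Mir337 there were 8 and 10, at the place of Mir3544, and opposite to Mir708 there were 8 and 9. Their source was not tested. Mir3074-1 and Mir337 changed version between the tables and the annotation used for positions. The places of these 2 rows in the tables' own annotation are therefore not known here.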

How the results depend on the processing

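With totals enlarged by the opposite reads of the 10 rows, levels became 3952 CPM for Mirlet7e, 2447 for Mir191, 360.0 for Mir142 and 137 for Mir380, and the sum 20169 CPM. With totals over either strand they were 3952, 2446, 360.0 and 137, and the sum 20167 CPM. The larger divisor sets these values, which moved by more than the small SD of the pups, while the other 6 hairpins moved by less. Subtracting own-strand reads moved no level by more than its SD. Leaving out either pup is no check of a mean of 2, since it always moves the mean by the same part of the SD. With the TMM sizes of edgeR the interval of Mirlet7e left out 0 at a log2 ratio of 0.037, for 5 of 10 hairpins in place of 4. DESeq2 size factors and either-strand totals kept the count at 4, and no called ratio changed sign. Without a filter on low counts, 16.4% of rows had an interval that left out 0, and with a mean count of at least 100 it was 48.4%. Read limits of 10, 100 and 1000 counts, and of 100 CPM, gave 13, 12, 8 and 10 rows. No paired analysis was possible because the 2 pups form 1 group. Depth limits Mirlet7f-1 and Mir380 most, with 539 to 826 reads a pup.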

Other observations

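The 22 other rows that lie opposite to a hairpin without a row held few opposite reads, with more than 3 in both pups at Mir3074-1, Mir126a and Mir337. The row matched to Mir3071 had 384 reads in pup 1 and 280 in pup 2 on its own strand and 0 on the other, at the place of Mir136. Its version changed between the tables and the annotation used for positions, as did those of Mir3074-1 and Mir337. The strand that Mir3071 had in the tables' annotation is therefore not known here. At Mir30e, with 200164 own-strand reads in pup 1 and 113905 in pup 2, 0 reads fell on the strand of Mir30f, which has no row.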
